A study of Homo sapiens with 4 samples.

Results

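A set of 10 genes that make, store, receive and damp the transforming growth factor beta (TGF-beta) signal was followed after NUPR1 knockdown and in control cells of the human lung adenocarcinoma line A549, an established culture line. They were the ligand genes TGFB1 and TGFB2, the receptor genes TGFBR1, TGFBR2 and TGFBR3, the latent TGF-beta binding protein genes LTBP1, LTBP2, LTBP3 and LTBP4, and the feedback inhibitor gene PMEPA1. They were chosen by symbol, with their levels in these same 2 columns known, and all 10 were found among the 19402 rows of the count table. The study asked how loss of NUPR1 (p8), a small chromatin protein induced by stress, alters transcription in cancer cells. Its labels give 4 libraries of polyadenylated RNA, 1 single-end and 1 paired-end library of p8 knockdown cells and 1 of each layout from control cells, with no drug, dose or time. The sources used here do not give the means of knockdown, the nature of the control, or how many cultures or clones lie behind the libraries.

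TGF-beta is secreted as an inactive complex in which the cytokine stays wrapped in its own propeptide, and a latent TGF-beta binding protein ties that complex to the extracellular matrix. Integrins or proteases release the cytokine, which binds the type II receptor, and the type II receptor then recruits and phosphorylates the type I receptor. The type I receptor phosphorylates SMAD2 and SMAD3, which enter the nucleus with SMAD4 and switch on matrix, cytoskeletal and feedback genes. A549 cells are a widely used epithelial line for TGF-beta-driven epithelial to mesenchymal transition.

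The counts came to 16635336 reads for knockdown cells and 20289107 for control cells, with the libraries of a group already merged into 1 column, so no value has a replicate and no test of the difference was possible. Levels are given as reads, as CPM (reads put on one library size by TMM factors) and, where different genes are set side by side, as the deposited RPKM, which divides by gene length. Ratios are log2 of knockdown over control, and intervals are 95% and exact (normal for a difference between 2 log2 ratios) and cover counting error only, not the spread between cultures. NUPR1 itself had 71 reads in knockdown cells and 197 in control cells, or log2 -1.21 (-1.63 to -0.81). The epithelial keratins KRT8 and KRT18 had 10479 and 9129 CPM in knockdown cells, against 8775 and 8071 CPM in control cells. The other epithelial markers were KRT19 with 22 reads against 46, EPCAM with 68 against 84 and CDH1 with 1197 against 865. The alveolar type II marker ABCA3 had 475 reads in knockdown cells and 504 in control cells, SFTPB had 53 and 33, and the other type II markers found had at most 37 reads in knockdown cells and 42 in control cells.

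The 10 genes did not all differ in one direction. PMEPA1, TGFBR1, LTBP1 and LTBP2 were at least 1.5-fold lower in knockdown cells, TGFBR3 was at least 1.5-fold higher, and the other 5 lay within 1.5-fold. Of the 10689 genes with a mean of at least 5 CPM, which all 10 genes reached, 4.44% were lower by at least 1.5-fold and 3.72% were higher by as much. Of the 10, 8 were lower by any amount, against 48.8% of all those genes, and 2 were higher, against 51.2%. The median log2 ratio of the 10 was -0.39, and that of all genes was 0.01, with the middle 90% of all genes between -0.56 and 0.52. Since the genes were chosen with these ratios known, the counts describe them and test nothing. Counting intervals excluded equal levels for 9 of the 10 genes, LTBP4 being the exception, but they did so for 54.3% of all genes as well.

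**Figure D1:**
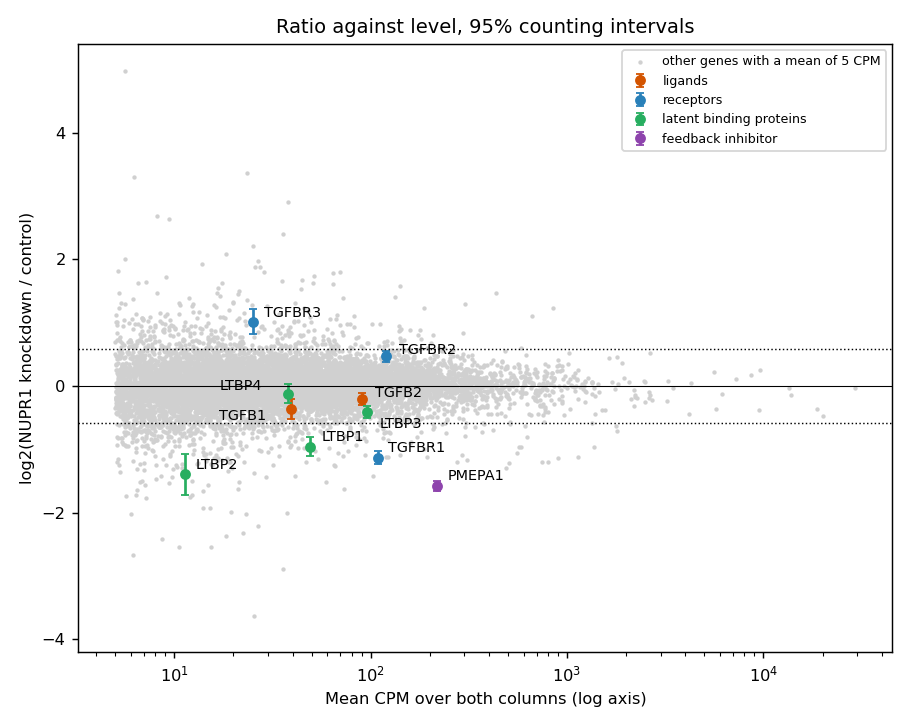
Log2 ratio of NUPR1 knockdown over control (vertical axis) against the mean CPM of both columns (horizontal log axis) for each gene with a mean of at least 5 CPM; coloured points are the 10 genes with 95% counting intervals, grey points all other genes, dotted lines 1.5-fold. PMEPA1 at -1.58 lies lowest of the 10 genes and TGFBR3 at 1.01 highest.

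PMEPA1 encodes a transmembrane protein that holds receptor-activated SMADs away from the receptor and is itself switched on by TGF-beta. It had 1841 reads in knockdown cells and 6565 in control cells, which scales to 110 CPM (105 to 115) against 327 CPM (319 to 335). This was the largest difference among the 10 genes, with a log2 ratio of -1.58 (-1.65 to -1.5) or a level 2.98-fold lower. Only 24 of the 10689 genes, 0.225%, had a lower ratio. Per length, PMEPA1 was the most abundant of the 10 in control cells at 59.4 RPKM, and stood behind TGFBR2 in knockdown cells at 20.3 RPKM. The antisense gene NKILA overlaps 343 bases of PMEPA1 exons in the GENCODE annotation, and the sources used here do not say whether counting used strand, so reads of the pair cannot be told apart.

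The promoters of the 5 genes that differed by at least 1.5-fold are shown because these genes include those furthest below their control level and the one furthest above. Each line gives the 250 bases before an annotated start, from RefSeq on GRCh38.p14 and read 5′ to 3′ on the gene's strand. The submitters' processing notes name the hg19 build, and the deposited tables carry no coordinates. Capitals mark CAGAC or its reverse complement GTCTG, the short letters that SMAD3 and SMAD4 contact in DNA.
PMEPA1 promoter, chr20:57710578-57710827, minus strand: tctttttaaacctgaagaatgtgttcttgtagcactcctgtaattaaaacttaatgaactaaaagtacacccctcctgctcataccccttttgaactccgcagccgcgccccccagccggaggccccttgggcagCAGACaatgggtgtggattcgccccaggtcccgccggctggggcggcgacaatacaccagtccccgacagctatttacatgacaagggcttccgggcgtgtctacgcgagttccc
TGFBR1 promoter, chr9:99104199-99104448, plus strand: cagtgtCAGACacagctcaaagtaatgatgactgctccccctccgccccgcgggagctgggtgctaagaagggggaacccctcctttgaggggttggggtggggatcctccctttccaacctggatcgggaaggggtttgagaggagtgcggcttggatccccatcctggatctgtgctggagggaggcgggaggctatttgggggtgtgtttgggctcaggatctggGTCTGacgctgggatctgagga
TGFBR3 promoter, chr1:91886152-91886401, minus strand: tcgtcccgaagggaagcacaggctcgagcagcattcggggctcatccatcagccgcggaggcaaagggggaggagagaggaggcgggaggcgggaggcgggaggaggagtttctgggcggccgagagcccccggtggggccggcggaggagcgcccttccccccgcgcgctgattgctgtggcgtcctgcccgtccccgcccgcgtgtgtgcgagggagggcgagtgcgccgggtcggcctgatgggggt
LTBP1 promoter, chr2:32946703-32946952, plus strand: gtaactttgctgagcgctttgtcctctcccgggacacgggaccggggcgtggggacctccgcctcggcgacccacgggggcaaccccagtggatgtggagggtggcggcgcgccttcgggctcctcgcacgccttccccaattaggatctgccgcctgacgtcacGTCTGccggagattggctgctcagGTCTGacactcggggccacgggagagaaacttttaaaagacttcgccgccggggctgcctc
LTBP2 promoter, chr14:74612238-74612487, minus strand: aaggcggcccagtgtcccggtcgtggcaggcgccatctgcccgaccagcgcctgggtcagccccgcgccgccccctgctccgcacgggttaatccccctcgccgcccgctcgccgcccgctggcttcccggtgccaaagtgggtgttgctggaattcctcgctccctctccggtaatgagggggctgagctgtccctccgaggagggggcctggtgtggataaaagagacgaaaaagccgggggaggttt
For a gene with several annotated starts, the window with the most CAGAC matches was taken, or the first listed of tied windows. Which start A549 cells use cannot be read from gene counts. All 10 genes had at least 1 window, 25 windows in all. The windows shown hold 2 matches each for TGFBR1 and LTBP1, 1 for PMEPA1 and 0 for LTBP2 and TGFBR3. They were picked from 8 windows for TGFBR1, 3 for LTBP1, 4 for PMEPA1 and 1 each for LTBP2 and TGFBR3. More windows give more room for a high count, so these matches cannot be compared between genes. Over all 25 windows of the 10 genes, 11 held CAGAC on either strand, or 44%, against 38% of 35116 windows of all genes, so the letters were about as frequent here as elsewhere. GGAATG, the core of a TEAD site, was in 3 of the 25 windows (12%) against 11.9% of all. TGANTCA, the AP-1 site, was in 0 of 25 against 6.57%, and the palindrome GTCTAGAC in 0 of 25 against 0.182%. Both strands were searched, and windows of neighbouring starts of 1 gene can overlap.

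Among the receptors, the type I and type II receptor genes differed in opposite directions. TGFBR1, the type I kinase that phosphorylates SMAD2 and SMAD3, had 1143 reads in knockdown cells and 2993 in control cells, which scales to 68.1 CPM (64.2 to 72.1) against 149 CPM (144 to 154). The log2 ratio of TGFBR1 was -1.13 (-1.23 to -1.03), a level 2.19-fold lower, and 86 genes, 0.805%, had a lower one. TGFBR2, the type II kinase that binds the ligand first, had 2346 reads against 2023, which scales to 140 CPM (134 to 145) against 101 CPM (96.3 to 105). The log2 ratio came to 0.47 (0.39 to 0.56), higher in knockdown cells by 1.39-fold and so under the 1.5-fold line, and 6.22% of genes had a higher ratio. TGFBR3, or betaglycan, a co-receptor without kinase activity that presents TGF-beta2 to the type II receptor, had 566 reads against 336, which scales to 33.7 CPM (31.0 to 36.6) against 16.7 CPM (14.98 to 18.6). The log2 ratio of TGFBR3 was 1.01 (0.81 to 1.21), 2.02-fold higher, and 103 genes, 0.964%, had a higher one. Where upper-quartile scaling replaced TMM it was 1.00 after rounding and just short of 2-fold. With TMM, 0.992% of all genes passed the 2-fold line on the higher side and 1.13% on the lower.

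The make-up of the receptor transcripts differed while their sum hardly did. The summed RPKM of the 3 receptor genes was 45.6 in knockdown cells and 46.4 in control cells. TGFBR1 made up 23.3% of that sum in knockdown cells, against 49.0% in control cells. TGFBR2 made up 66.6% against 46.2%, and TGFBR3 10.1% against 4.81%. Per length there were 0.349 TGFBR1 transcripts for each TGFBR2 transcript in knockdown cells and 1.06 in control cells. The log2 ratios of TGFBR1 and TGFBR2 differed by -1.60 (-1.73 to -1.47), a value that no scaling of the columns can change. TGFBR2 headed the 10 genes per length in knockdown cells at 30.4 RPKM, while in control cells TGFBR1 at 22.7 RPKM and TGFBR2 at 21.4 RPKM lay close together behind PMEPA1.

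**Figure D2:**
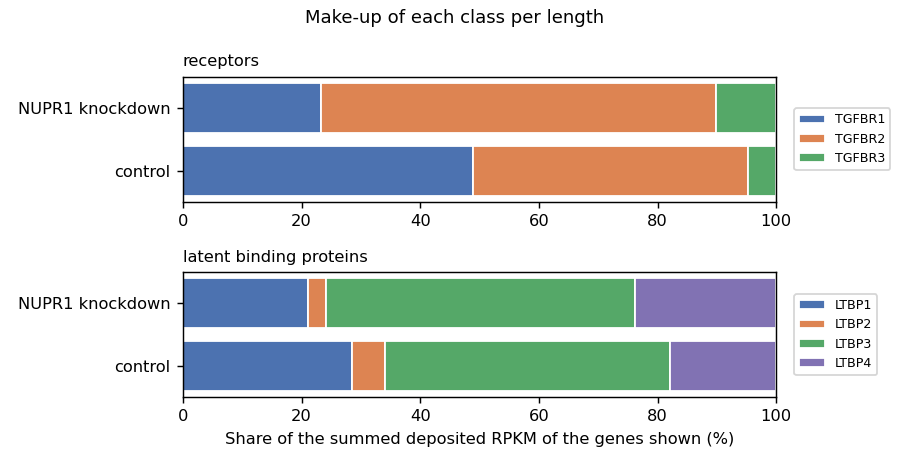
Share of the summed deposited RPKM (horizontal axis, percent) that each gene takes within the receptors (upper panel) and the latent TGF-beta binding proteins (lower panel), with the NUPR1 knockdown bar above the control bar. TGFBR1 takes 23.3% of the receptor sum in knockdown cells and 49.0% in control cells, while LTBP3 stays near its share with 51.9% and 48.0%.

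Of the latent TGF-beta binding proteins, LTBP1 and LTBP2 were lower by at least 1.5-fold and LTBP3 and LTBP4 were not. LTBP1, which covalently binds the TGF-beta propeptide and anchors it on fibronectin and fibrillin, had 564 reads in knockdown cells and 1309 in control cells, which scales to 33.6 CPM (30.9 to 36.5) against 65.1 CPM (61.7 to 68.8). The log2 ratio came to -0.96 (-1.10 to -0.81), 1.94-fold lower, with 1.30% of genes below it. LTBP2, a fibrillin-binding family member that does not carry latent TGF-beta, had 105 reads against 329, the fewest of the 10 genes, which scales to 6.25 CPM (5.11 to 7.57) against 16.4 CPM (14.6 to 18.2). LTBP2 had a log2 ratio of -1.39 (-1.72 to -1.07), 2.62-fold lower, with 39 genes or 0.365% below it. LTBP3, which binds all TGF-beta isoforms, had 1385 reads against 2205, which scales to 82.5 CPM (78.2 to 86.9) against 110 CPM (105 to 114), or log2 -0.41 (-0.51 to -0.31). LTBP4, which binds TGF-beta1 weakly and helps assemble elastic fibres, had 613 reads against 796, which scales to 36.5 CPM (33.7 to 39.5) against 39.6 CPM (36.9 to 42.5). The interval of its log2 ratio, -0.12 (-0.27 to 0.04), included equal levels.

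LTBP3 was the most abundant of the family per length in both columns, at 12.7 RPKM in knockdown cells and 16.6 in control cells. It made up 51.9% of the summed RPKM of the family in knockdown cells and 48.0% in control cells. LTBP1 made up 21.1% against 28.5%, LTBP2 3.06% against 5.57%, and LTBP4 23.9% against 17.97%. LTBP4 thus stood above LTBP1 in knockdown cells (5.84 and 5.17 RPKM) and below it in control cells (6.20 and 9.82 RPKM). The log2 ratio of LTBP1 minus that of LTBP3 was -0.54 (-0.72 to -0.37). The family sum was 24.5 RPKM against 34.5 RPKM. Genes transcribed from the other strand overlap 249 exon bases of LTBP1 and 207 of LTBP2 in GENCODE.

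Both ligand genes lay within 1.5-fold of their control level. TGFB1, the most widely expressed isoform, had 577 reads in knockdown cells and 887 in control cells, which scales to 34.4 CPM (31.6 to 37.3) against 44.1 CPM (41.3 to 47.1). The log2 ratio came to -0.36 (-0.52 to -0.21), with 11.2% of genes below it. TGFB2, the isoform that needs betaglycan for strong receptor binding, had 1413 reads against 1949, which scales to 84.1 CPM (79.8 to 88.6) against 97.0 CPM (92.7 to 101). The log2 ratio of TGFB2 was -0.20 (-0.30 to -0.11), with 22.3% of genes below it. Both were lower by less than 1.5-fold, and the difference between their log2 ratios, -0.16, had an interval of -0.34 to 0.02 that included equal change. TGFB3, the third isoform, was not among the 10 genes and had 16 reads against 28.

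Which ligand was the more abundant depends on the length used. With deposited lengths TGFB1 had 16.0 RPKM in knockdown cells and 20.1 in control cells, and TGFB2 had 6.90 and 7.79. The deposited length of TGFB2 is 12486 bases, 2.47 times the 5053 exon bases that GENCODE gives it, and that of TGFB1 is 2200 bases against 2769. With the GENCODE lengths TGFB2 stood at a recalculated 17.1 and 19.2 RPKM and TGFB1 at 12.7 and 16.0, so the order of the ligands turned round in both columns. A noncoding gene on the same strand, TGFB2-OT1, covers 1371 of the exon bases of TGFB2, so reads of the pair cannot be told apart there. For the other 8 genes the deposited length was between 0.994 and 1.18 times the GENCODE length.

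**Figure D3:**
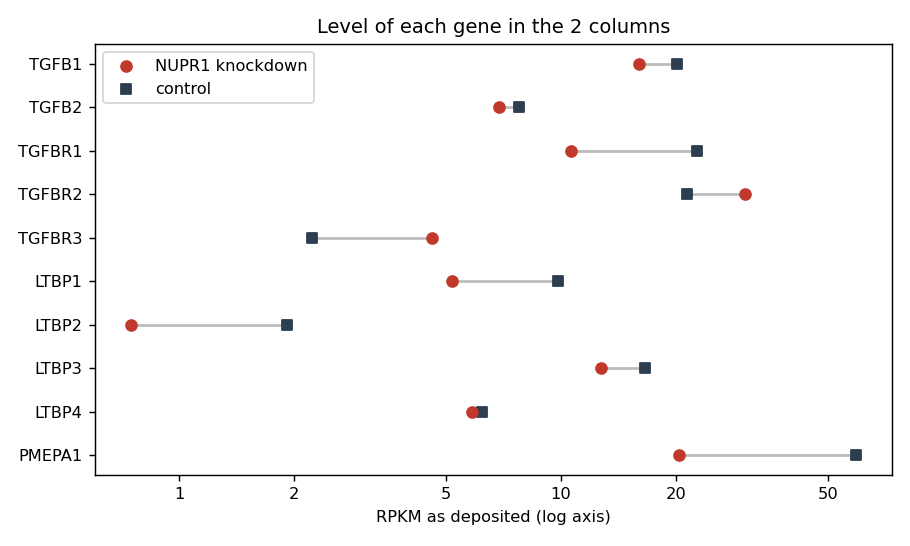
Deposited RPKM of each of the 10 genes (horizontal log axis) in the NUPR1 knockdown cells (red circles) and the control cells (dark squares), 1 value per column, joined by a grey line. TGFBR2 and TGFBR3 lie to the right of their control values and the other 8 genes to the left, from 0.75 RPKM for LTBP2 in knockdown cells to 59.4 RPKM for PMEPA1 in control cells.

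The lists that follow were chosen with earlier results of these data known, so their counts describe them and test nothing. Genes that release latent TGF-beta or hold it in the matrix were counted first. Of 24 listed, 22 were found and 12 had a mean of at least 5 CPM. All 12 of these were lower in knockdown cells by some amount, where 48.8% of all genes were. By at least 1.5-fold 4 were lower and 0 higher, where the shares of all genes were 4.44% and 3.72%. The median log2 ratio of the 12 was -0.39 against 0.01 over all genes. With the 10 members under 5 CPM let in, 7 were lower and 3 higher by 1.5-fold, where 12.4% and 11.6% of all genes were. TGM2, the transglutaminase that cross-links LTBP1 into the matrix, had 450 CPM in knockdown cells and 1038 CPM in control cells, or log2 -1.20 (-1.24 to -1.17). FN1, fibronectin, the scaffold on which LTBP1 is first laid down, had 186 CPM against 398 CPM, or log2 -1.10 (-1.16 to -1.04). FURIN, the protease that cleaves the TGF-beta propeptide, had 23.3 CPM against 44.8 CPM, or log2 -0.94 (-1.11 to -0.77). ITGAV, the alpha subunit of the integrins that pull the latent complex open, had 136 CPM against 225 CPM, or log2 -0.72 (-0.80 to -0.65). The integrin beta subunits ITGB1 and ITGB5 lay nearer to equal levels, at -0.24 and -0.09.

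Genes known to be induced by TGF-beta had the lowest median of the lists. Of 28 listed, 20 reached the mean of 5 CPM. Among those 20, 17 were lower, 11 by at least 1.5-fold and 9 by at least 2-fold, while 0 were higher by 1.5-fold, with a median log2 ratio of -0.93. The shares of all genes were 48.8% lower by any amount, 4.44% lower by 1.5-fold, 1.13% lower by 2-fold and 3.72% higher by 1.5-fold. ANGPTL4 was furthest apart at -2.36 (-2.68 to -2.06), followed by COL1A1 at -1.74, CDH2 at -1.65, JUNB at -1.52 and CTGF at -1.34. Among abundant members, chosen here after their values were seen, TPM1, a tropomyosin, had 484 CPM in knockdown cells and 1113 CPM in control cells, or log2 -1.20, and TGFBI, a secreted matrix protein named for its induction by TGF-beta, 387 CPM against 753 CPM, or log2 -0.96. Not all of the list went this way, since IGFBP3 had 1042 CPM against 834 CPM, or log2 0.32, and the intermediate filament gene VIM 562 CPM against 518 CPM, or log2 0.12. PMEPA1 itself, also a TGF-beta-induced gene, had the ratio of -1.58 given above.

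The genes of the intracellular relay that reached a mean of 5 CPM had log2 ratios between -0.11 for E2F4 and 0.41 for RBL1, the ends of that range, chosen after their values were seen. Of 13 signal transducer genes 12 reached the mean of 5 CPM, and 0 of these differed by 1.5-fold in either direction, a line that few of all genes passed (4.44% lower and 3.72% higher), so a count of 0 lies near the share of all genes. Their median log2 ratio was 0.01. SMAD3, a main effector, had 258 CPM in knockdown cells and 257 CPM in control cells, or log2 0.00 (-0.06 to 0.06), and USP9X, which removes ubiquitin from SMAD4, had 0.20. Among 12 inhibitors and feedback genes that reached 5 CPM, of 15 listed, the ratios split into 6 above and 6 below 0 around a median of 0.00, and 2 were higher by at least 1.5-fold, where 3.72% of all genes were. BAMBI, a decoy that resembles a type I receptor without a kinase domain, had 17.6 CPM against 8.41 CPM, or log2 1.07 (0.79 to 1.35). NEDD4L, a ubiquitin ligase that acts on activated SMAD2 and SMAD3, had 66.9 CPM against 36.1 CPM, or log2 0.89 (0.75 to 1.03). The abundant members STRAP and FKBP1A had 0.15 and 0.21. Of the 6 below 0, chosen here after their values were seen, SKIL had -0.51 (-0.63 to -0.39), SKI -0.22 and SMAD7 -0.12.

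Genes repressed by TGF-beta divided evenly, with 3 higher and 3 lower of the 6 that reached 5 CPM, out of 10 listed, and a median of 0.01. Of these 6, 2 were higher by at least 1.5-fold, against that same 3.72%. CDH1, or E-cadherin, had 71.3 CPM in knockdown cells and 43.0 CPM in control cells, or log2 0.73 (0.60 to 0.86), and ID2, an inhibitor of helix-loop-helix factors, had 0.78 (0.57 to 0.99). MYC and ID1 had -0.07 and -0.06. In the activin and nodal branch, which shares SMAD2 and SMAD3 with TGF-beta, 16 of 19 listed genes were found and 7 reached the mean of 5 CPM, with 4 higher, 3 lower and a median of 0.06. By at least 1.5-fold 1 was higher and 1 lower, where 3.72% and 4.44% of all genes were. By any amount, 51.2% of all genes were higher and 48.8% lower. INHBB, the activin beta-B subunit, had 96.7 CPM against 31.6 CPM, or log2 1.61 (1.48 to 1.75). GDF11, an activin-like ligand, had -0.70 (-0.94 to -0.47), FSTL3, which binds activin, -0.39, and GDF15, a stress-induced distant member of the family, 0.00 with an interval of -0.16 to 0.15.

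**Figure D4:**
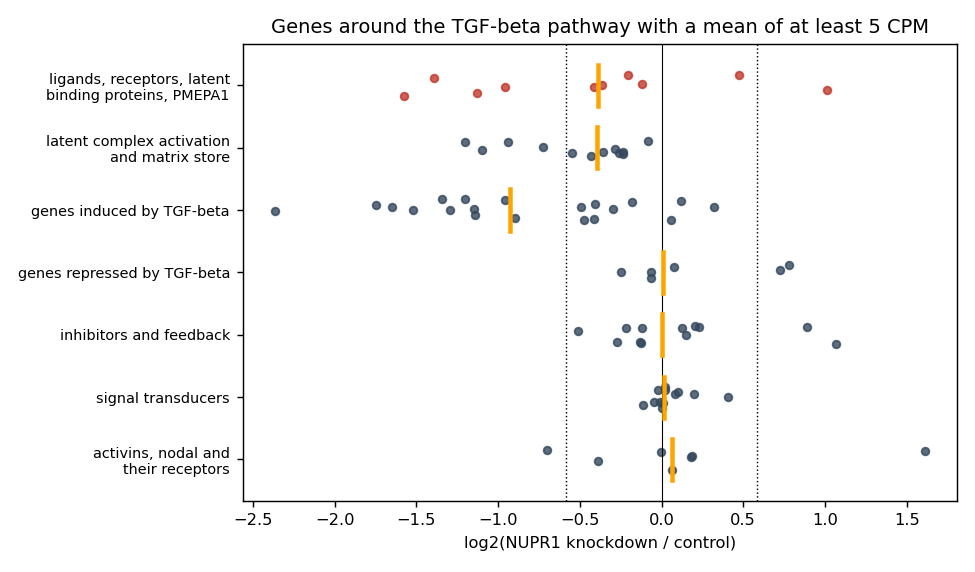
Log2 ratio of NUPR1 knockdown over control (horizontal axis) for each gene with a mean of at least 5 CPM in the 10 genes of the ligands, receptors and binding proteins (red) and in 6 further lists (dark points, spread vertically only for legibility); orange bars are medians and dotted lines 1.5-fold. The medians of the latent complex list (-0.39) and of the induced genes (-0.93) lie below 0, and those of the other 4 lists lie between 0.00 and 0.06.

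A549 is an established culture line and the labels name no other cells, so markers of other cell types are given as a description only. The 7 fibroblast markers summed to 8.75 CPM in knockdown cells and 5.52 CPM in control cells. COL3A1 had 27 and 26 reads, PDGFRA 66 and 46, DCN 12 and 6 and POSTN 27 and 11. LUM had 7 and 11 reads, THY1 5 and 6 and PDGFRB 3 and 5. The 5 endothelial markers summed to 2.02 CPM against 0.697 CPM. CDH5 had 18 reads against 3, VWF 10 against 6, KDR 5 against 0, TEK 1 against 3 and PECAM1 0 against 2. The 4 leukocyte markers found summed to 1.07 CPM against 0.697 CPM, with CD14 at 7 and 6 reads and PTPRC at 6 and 4. All 3 sums were higher in knockdown cells, on few reads per gene, and this was not tested. In bulk RNA of a culture line, a change in all cells and a change in some of them cannot be told apart.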

How the data were processed

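Polyadenylated RNA of A549 cells was sequenced as 2 NUPR1 knockdown and 2 control libraries. The deposited count table holds whole-number read counts and the deposited RPKM table holds RPKM with 2 decimals, 1 column per group, both made by the authors; each RPKM above 1 equals count over deposited length over a constant, within 1%. TopHat2 2.0.10, edgeR 3.2.2 and hg19 are named per the submitters' processing notes, with no role; for the counter, annotation, strand use and merging of layouts nothing is given in the sources used here. The knockdown column's name is 1 letter off the titles of its libraries, and the match rests on the start they share.

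Symbols turned into dates, 26 in number, were restored, and 3 rows with a broken name or length were left out (0.0872% of knockdown and 0.0509% of control reads). TMM factors came from edgeR 4.0.16 in R 4.3.3 over the 14175 genes passing its expression filter (minimum count 10, minimum total 15), and intervals from scipy 1.17.1 in Python 3.11.15. No pseudocount was added to the counts, but for a ratio 3 reads stood in for a column with no reads. Such a gene got no ratio where its other column did not exceed 3 reads. Ratios made with this floor enter the counts given with no filter. In these columns 1 read equals 0.0595 CPM for knockdown and 0.0498 CPM for control. Intervals cover counting error only, because each group has a single merged column. Reads carry no molecular identifiers, so copies of 1 molecule cannot be told from separate molecules. Separate counting of both mates, which the sources leave unsettled, would make the intervals too narrow. A single value per group leaves no spread to test against, so no p-value is given; the functions were tested on simulated data.

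The 10 genes and the lists were chosen with earlier results of these data known. Named by rule were all 10, NUPR1, per list up to 5 genes of largest ratio past 1.5-fold with a mean of 5 CPM and the 2 most abundant within it, and per marker list the 2 with most reads and any with 0. Exon lengths and overlaps came from the basic annotation set of GENCODE release 29, not its full set, used by symbol only because its build differs. All 10 symbols matched the RefSeq promoter table.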

Additional observations from a re-analysis of the deposited data

How the results depend on the processing

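No paired analysis was possible because each group has a single merged column, and leaving out libraries or blocking on layout was not run. Across 9 alternatives (3 other scalings, 3 other filters, 2 pseudocounts on RPKM, and the gene-length trend removed) the log2 ratio of each of the 10 genes kept its sign, where the 3 filters cannot change a ratio and only decide which genes are counted. In all, 87 of these values stayed inside the counting interval of the reported one. The 3 others came with RPKM + 1, which pulls low-RPKM genes toward 0: LTBP2 at -0.74, LTBP1 at -0.81 and TGFBR3 at 0.79. PMEPA1 ranged from -1.59 to -1.5 and TGFBR1 from -1.14 to -1.03. The 4 lower and the 1 higher gene at 1.5-fold were 3 and 1 at 2-fold, and scaling by totals moves every log2 ratio by 0.027. With GENCODE lengths, an alternative added after seeing the data, the log2 of TGFB1 over TGFB2 per length turned to -0.43 in knockdown cells and -0.27 in control cells, where the deposited length of TGFB2 is 2.47 times the GENCODE one; that of LTBP1 over LTBP3 was -1.41 and -0.87. Counts of the lists moved as follows. With no filter, genes at least 1.5-fold lower and higher were 7 and 3 of the latent complex list, 3 and 4 of the activin list and 2 and 4 of the repressed list. They were 15 and 1 of the induced genes, 0 and 1 of the signal transducers and 1 and 3 of the inhibitors. Of all genes 12.4% were then lower and 11.6% higher. At a mean of 1 CPM, 1 activin gene was lower and 3 were higher, with 7.16% of all genes lower and 5.70% higher. The latent complex list then had 5 lower and 1 higher, and the induced genes 13 and 1. At 2-fold, 2 latent complex genes and 0 activin genes were lower, where 1.13% of all genes were. On the higher side, 1 inhibitor and 0 repressed genes passed 2-fold, where 0.992% of all genes did. With RPKM + 1, 0 activin genes were lower by 1.5-fold, where 2.14% of all genes were. Depth limits LTBP2 most, with 105 reads in knockdown cells.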

Other observations

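Genes with TGFB in their symbol outside the 10, chosen after their values were seen, gave the following. TGFB1I1, which encodes the focal adhesion adaptor Hic-5 and is induced by TGF-beta, had 81 reads in knockdown cells and 281 in control cells, which scales to 4.82 CPM (3.83 to 5.99) against 14.0 CPM (12.4 to 15.7), or log2 -1.54 (-1.91 to -1.17). TGFBRAP1, a receptor-associated protein of endosomal trafficking, had 182 reads against 218, or log2 0.00 (-0.29 to 0.29).

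Of the latent complex list 10 members lay under the mean of 5 CPM, and those whose counting interval left out equal levels, chosen after their values were seen, differed in both directions. LRRC32, which docks latent TGF-beta on the cell surface, had 20 reads in knockdown cells and 5 in control cells, or log2 2.26 (0.80 to 4.03). ITGB8, a partner of ITGAV in latent TGF-beta activation, had 66 against 46, or log2 0.78 (0.22 to 1.36). The integrin subunit ITGB3 had 7 against 25 reads, and the matrix proteases MMP2 and MMP14 had 7 against 21 and 39 against 72. By the same choice among the 8 induced genes under that mean, PDGFB, a growth factor subunit, had 84 against 46 reads, or log2 1.13 (0.59 to 1.68). Lower were the EMT factor genes SNAI1 with 24 against 77 reads and SNAI2 with 7 against 27, and the cytokine IL11 with 33 against 84.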
